A study of Mus musculus with 2 samples.

Results

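The 8 genes described here encode a transporter and enzymes of hepatic glycolysis and gluconeogenesis: Slc2a2, Gpi1, Pfkl, Pklr, Pcx, Pck1, Fbp1 and G6pc. Binding of CTCF at them was read from ChIP-seq peak lists of newborn mouse liver. A peak was counted for a gene when its summit lay in the gene or within 20 kb of it in the GENCODE M21 annotation on mm10. By this rule 47 of the 57220 peaks of the optimal list belonged to the 8 genes. The optimal list is the authors' set of peaks that passed an irreproducible discovery rate (IDR) filter, which keeps peaks whose ranking repeats between lists. The series holds 1 group of mice of the strain B6NCrl at postnatal day 0, with 2 replicate libraries, no treatment and no second genotype. Both libraries carry the same biosample and donor labels and were made from livers pooled over several dissections, and differences between them may thus reflect technical variation alone. The labels say that sex was not recorded. The peak lists hold no expression values, so the tissue label was not checked against marker genes. With 1 group there is no contrast to test, and the values below are descriptions with no p-value.

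Glycolysis and gluconeogenesis run over the same intermediates in opposite directions. Hepatocytes take up and release glucose through the transporter encoded by Slc2a2 (GLUT2). Glucose phosphate isomerase (Gpi1) serves both directions, while liver phosphofructokinase (Pfkl) and liver and red cell pyruvate kinase (Pklr) catalyse irreversible steps of glycolysis. Pyruvate carboxylase (Pcx), cytosolic phosphoenolpyruvate carboxykinase (Pck1), fructose bisphosphatase (Fbp1) and the catalytic subunit of glucose 6-phosphatase (G6pc) bypass the irreversible steps on the way back to glucose. At birth the supply of glucose from the placenta ends and the liver takes over its production. CTCF, a DNA-binding protein with zinc fingers, recognises a motif that has a direction and, where cohesin is halted at it, anchors chromatin loops, most often between motifs that point toward each other.

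Every one of the 8 genes had a peak in its window, against 80.8% of all protein-coding genes, but the genes differed in where the peaks lay. Pcx had 13 peaks, Pfkl 9, Gpi1 7, Pklr 5, Pck1 4, Fbp1 4, Slc2a2 3 and G6pc 2. The median protein-coding gene had 3. Pcx is the longest of the genes at 111.3 kb and had more peaks than 98.3% of protein-coding genes, while its density of 0.859 peaks per 10 kb of window exceeded that of 79.96% of them. Pfkl had the highest density, 1.43 peaks per 10 kb, above 95.6% of protein-coding genes. G6pc (0.397) and Slc2a2 (0.408) lay close to the median density of 0.413. Of the 47 peaks 20 lay within a gene, 10 upstream and 17 downstream of one.

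**Figure D1:**
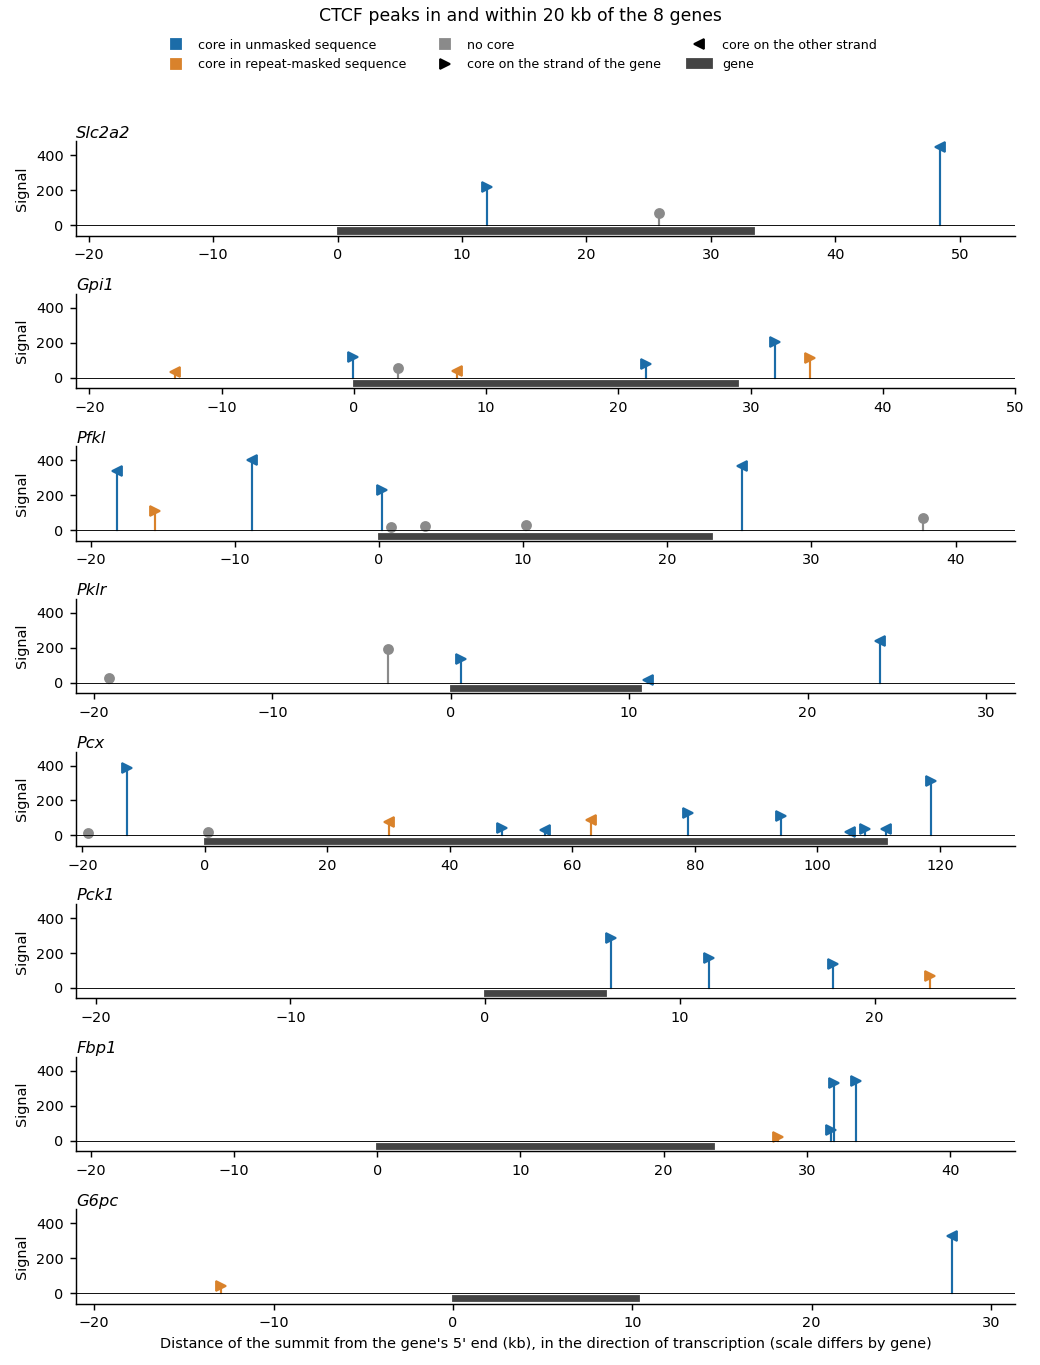
Each row shows 1 gene as a dark bar, with the distance of peak summits from its 5' end in kb on the x axis and the deposited signal of each peak on the y axis. Arrowheads give the strand of the CTCF core relative to the gene and circles mark peaks without a core. The bars of Pck1, Fbp1 and G6pc hold no peak, and the tallest peaks, at Slc2a2, Pfkl and Pcx, lie outside the gene they were counted for.

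**Figure D2:**
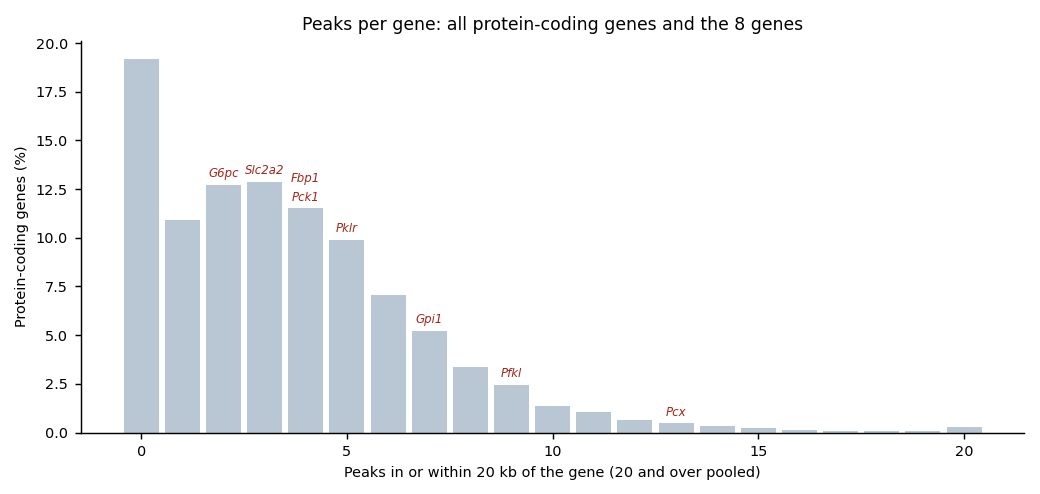
Bars give the percentage of protein-coding genes (y axis) by the number of peaks in or within 20 kb of the gene (x axis), and the names stand above the bar of their own count. G6pc and Slc2a2 stand at 2 and 3 peaks near the middle of the distribution, and Pfkl and Pcx at 9 and 13 in its tail.

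The sequences under these peaks were read from GRCm38, the assembly that mm10 names. In each, capitals mark the best match to the 14-base CTCF core and small letters 8 bases on either side, written along the strand of the match, whose coordinates span the capitals. The strongest peak with a core match at each gene is shown first, as the site of highest signal to which a core could be assigned.
Slc2a2, 15.0 kb beyond the 3' end (chr3:28746327-28746340, minus strand): caatgttgACACCAGGGGGTGCtagtgctt
Gpi1, 2.81 kb beyond the 3' end (chr7:34198511-34198524, minus strand): acttgtgtCCAGCAGGTGGCACtattggta
Pfkl, 8.84 kb upstream (chr10:78018899-78018912, plus strand): gccggtcgCCACCAGGTGGCGCtgtgccct
Pklr, 13.4 kb beyond the 3' end (chr3:89160208-89160221, minus strand): cgcagcccTCGCCAGGGGGCGCagctctcg
Pcx, 12.8 kb upstream (chr19:4497676-4497689, plus strand): actcacagCCACCAGGTGGGGGtagagcca
Pck1, 0.228 kb beyond the 3' end (chr2:173159487-173159500, plus strand): cattgttaCCACTAGTTGGCGCtctttggc
Fbp1, 9.89 kb beyond the 3' end (chr13:62854856-62854869, minus strand): tcccgtcaGCAGTAGATGGCGCtactgggc
G6pc, 17.5 kb beyond the 3' end (chr11:101395346-101395359, minus strand): cagatagaACAGCAGAGGGCGCtgggagcc
The matches at Gpi1 and Pfkl had no mismatch. With positions counted from 1 at the 5' end of the core and the core's own letter first (R for A or G, K for G or T, Y for C or T, S for C or G), the match at Pck1 differed by R8T, that at G6pc by C1A, that at Fbp1 by C1G and that at Pcx by C12G. The match at Slc2a2 differed by C1A and C12T, and that at Pklr by C1T and A3G.

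Of the 47 peaks, 37 had a core with at most 2 mismatches centred no more than 50 bp from the summit, which is 78.7% (95% exact binomial interval 64.3 to 89.3, which covers counting error only). The share over all optimal peaks was 71.8%, inside that interval, and 3.47% of windows moved by 1 kb held a core. Median signal was lower with each mismatch up to 3, as it was over the whole list. The 5 perfect matches had a median signal of 329.2 (all peaks with a perfect match 228.0), the 12 with 1 mismatch 131.5 (117.4), the 20 with 2 mismatches 95.9 (61.5) and the 8 with 3 mismatches 27.8 (41.7). An exception was the peak 3.53 kb upstream of Pklr, which had a signal of 195.2 with 4 mismatches in its best match. It stood out from the other peak with 4 mismatches, within Pfkl, at 18.1. Downstream peaks carried a core in 16 of 17 cases, upstream peaks in 7 of 10 and peaks within genes in 14 of 20. The 95% intervals of these shares were 71.3 to 99.9%, 34.8 to 93.3% and 45.7 to 88.1%. They take peaks as independent, which peaks of the same gene are not, so they do not test a difference between positions. Median signal differed by position too, at 206.0, 116.1 and 49.7 in the same order. Position was bound up with gene, since Pcx gave 10 of the 20 peaks within genes, with signals of 18.3 to 128.0. Pck1, Fbp1 and G6pc gave none of them. The shares by position over all optimal peaks were not computed.

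**Figure D3:**
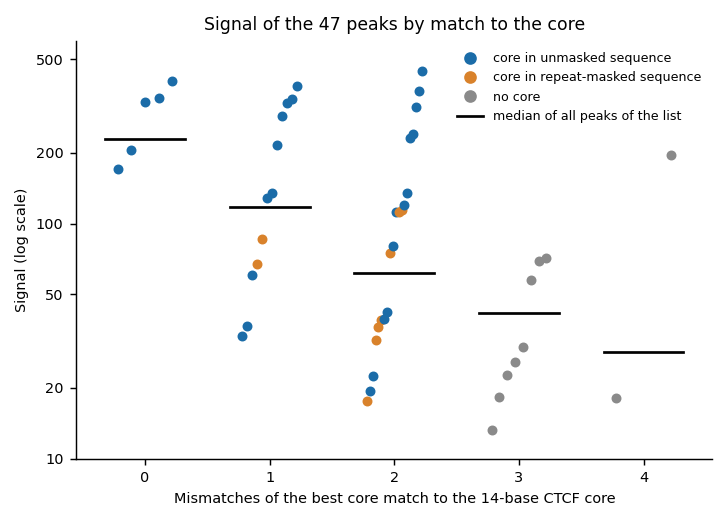
Points are the 47 peaks, placed by the mismatches of their best core match (x axis) and their signal on a log scale (y axis), and black lines give the median of all optimal peaks with that number of mismatches. The 5 peaks with a perfect match lie between 169.9 and 403.3, and the 9 peaks whose core lies in repeat-masked sequence (orange) lie at or below 114.7.

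A recurring sequence was found at 9 of the 37 cores. These 9 lay wholly in sequence that the assembly marks as repetitive, in the windows of 6 of the 8 genes, all but Slc2a2 and Pklr. Of these, 5 are shown, because their bases are alike although they lie on 5 chromosomes.
Gpi1, in the gene (chr7:34222550-34222563, plus strand): tgtggaggCCACAAGAGGGCATcagatccc
Pcx, in the gene (chr19:4573440-4573453, minus strand): ctgcatggCCAGAAGAGGGCACcagacctc
Pck1, 16.6 kb beyond the 3' end (chr2:173175892-173175905, plus strand): tggggcagCCAGAAGAGGGCGCcatatcct
Fbp1, 4.47 kb beyond the 3' end (chr13:62860267-62860280, minus strand): cctgcaggCCAGAAGAGGGCATcagatgcc
G6pc, 12.9 kb upstream (chr11:101354614-101354627, plus strand): tacagaggCCAGAAGGGGGCATctgatctc
The most frequent base at each position over the 9 sites reads cctggaggCCAGAAGAGGGCATcagatccc, which departs from the core by Y5A and S14T. All 9 were within 2 differences of its 14 central bases, which were derived from them. Over the whole list, where those bases were not chosen, 81.0% of 10153 wholly masked cores were within 2 differences of them, against 4.39% of 30928 other cores. Rodent genomes are known to hold many copies of the B2 short interspersed element, some of which carry a CTCF motif. The masking does not name a repeat family, and whether these 9 sites are B2 copies was not tested. The 9 sites were 24.3% of the cores at the 8 genes, and 24.7% of all cores in the list were masked in the same way, so the share was at the background. Their signals ran from 17.6 to 114.7 with a median of 67.2, while the 28 unmasked cores had a median of 188.0. Over all cores the medians were 50.03 for masked and 129.1 for the rest.

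Each of the 47 optimal peaks was found in both replicates. All 47 had a summit within 100 bp in both replicate lists, as did 97.1% of all optimal peaks. Of the 47, 43 were among the 57220 strongest peaks of both replicates, a share that was not computed over all optimal peaks. The same number, 43, was held with identical borders in the conservative list, the shorter of the authors' IDR lists, as were 87.8% of all optimal peaks. The conservative list held 49 peaks in the same windows, so some of them had no optimal peak of identical borders. The IDR lists were made from both replicates, so these counts are not an independent check. The deposited signal at the 47 peaks ran from 5.86 to 227.5 in replicate 1 and from 3.91 to 231.4 in replicate 2, and it was higher in replicate 1 at 27 of them. In the optimal list the 47 peaks carried the signal of the pooled list, made from both libraries, which ran from 13.2 to 446.9 with a median of 86.1 (71.2 over the whole list). By the ratio of the deposited signals, weak peaks differed most. The one just beyond the 3' end of Pklr had signals of 11.99 and 4.03 (ranks 48605 and 115110), and the most distal upstream peak of Pcx had 8.29 and 3.91 (ranks 58666 and 119725). By the ratio of the ranks the widest gap, 4.08, was at a strong peak, that 8.84 kb upstream of Pfkl (ranks 672 and 2740), and the peak of 446.9 beyond Slc2a2 had a ratio of 2.18 (ranks 952 and 437). The median ratio of ranks was 1.10 at the 47 peaks and 1.13 over all matched optimal peaks. Besides these peaks, the replicate lists held other calls that mostly did not recur: the windows held 154 peaks in replicate 1 and 156 in replicate 2, the 47 included, and 18 other summits were shared.

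**Figure D4:**
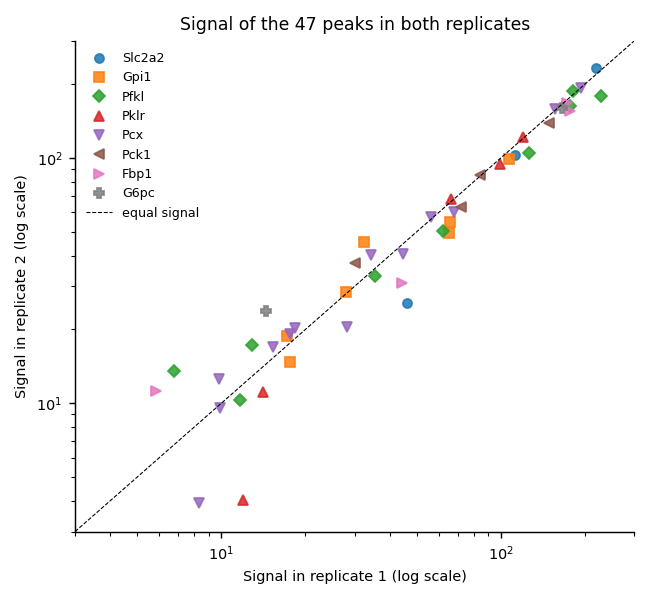
Each point is 1 of the 47 peaks, with its deposited signal in replicate 1 on the x axis and in replicate 2 on the y axis, both on a log scale, and the dashed line marks equal signal. The strongest peaks lie close to the line, and the 2 weak peaks at Pklr and Pcx with 4.03 and 3.91 in replicate 2 lie farthest below it.

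Promoter peaks, with a summit within 1 kb of an annotated start of the gene, were found at 4 of the 8 genes, Gpi1, Pfkl, Pklr and Pcx. The share over all protein-coding genes was 36.2%. The same 4 genes had a peak within 1 kb of their 5' end, where the share over all genes was 28.3%. None of Slc2a2, Pck1, Fbp1 and G6pc had one. Gpi1, Pfkl and Pcx have a CpG-rich promoter (at least 50% GC, and at least 0.6 of the CpG dinucleotides that base composition predicts, in the 500 bp on each side of the 5' end), a class in which 53.8% of genes had a promoter peak. The other 5 genes do not, and 22.1% of such genes had one. The number of annotated starts moved with the result too, being 5 to 11 at the 4 genes with a promoter peak and 1 to 3 at the others. Across the annotation, 54.1% of protein-coding genes with 5 to 11 starts and 22.1% of those with 1 to 3 had a promoter peak. Counted at the 5' end alone the shares were 39.0% and 20.1%. The part of CpG content and of the number of starts in the difference between the 8 genes was not tested.

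Pfkl had the strongest promoter peak of the 8 genes. It lay on chromosome 10 from 78009726 to 78009957, 230 bp inside the gene and 46 bp from the start of a protein-coding transcript. Its signal was 230.5, stronger than 81.6% of the list, with 125.96 in replicate 1 and 104.99 in replicate 2. A weaker peak of 18.1 lay 831 bp inside the gene in a noncoding exon, with no core within 2 mismatches, and was not held in the conservative list. Another lay 72 bp from an internal start, in coding exon 7 (29.9). The promoter core of Pfkl is shown with those of Pklr and Gpi1, the sites nearest to where transcription starts.
Pfkl, 0.23 kb inside the gene (chr10:78009850-78009863, minus strand): tccagcagCCACTAGAGGGGCGaccaggtc
Pklr, 0.55 kb inside the gene (chr3:89136681-89136694, plus strand): ggtttcccCCACAAGGGGGCAGgcagggga
Gpi1, 0.078 kb upstream (chr7:34230412-34230425, minus strand): cagagaggCCAGCAGAGGCCCCcagatcta
The core at Pklr differed by Y5A alone. That at Pfkl differed by C12G and R13C, and that at Gpi1 by G11C and R13C. All 3 lay on the strand of their gene.

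At Pklr the summit of the promoter peak lay downstream of all 5 annotated starts. The gene is known to be transcribed from separate promoters in red cell precursors and in hepatocytes, and the annotation does not say which start is which. The annotated starts of its protein-coding transcripts lay at the 5' end and 430 and 437 bp inside the gene, and the summit lay 550 bp inside it, in intron 1 of the transcript with the longest coding sequence. The peak, on chromosome 3 from 89136586 to 89136751, had a signal of 134.9 (replicates 66.4 and 67.97). The coreless peak 3.53 kb upstream, from 89132496 to 89132719, had 195.2 (replicates 98.9 and 94.8). Newborn liver holds hepatocytes and red cell precursors together, and the peak lists do not separate them. At the far side, a weak peak of 19.4 lay 0.408 kb beyond the gene in the 3' UTR of Hcn3, and one of 239.7 lay 9 bp from a start of Hcn3, an ion channel gene (replicates 119.9 and 121.3). The fifth, 19.2 kb upstream in a noncoding exon of Gm29704, had 25.8.

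Gpi1 carried its promoter peak 78 bp upstream of the 5' end, on chromosome 7 from 34230330 to 34230504. The signal was 120.2, with 65.5 in replicate 1 and 54.8 in replicate 2. The peaks within the gene lay at 3.30, 7.78 and 22.1 kb from the 5' end, with signals of 57.4, 36.5 and 79.998. The last was 333 bp from an internal start of a transcript annotated as subject to nonsense-mediated decay, and it counted as a promoter peak for that reason alone. The strongest peak of this window, 206.0 (replicates 107.2 and 98.97), lay between Gpi1 and the neighbouring gene Pdcd2l, from 34198404 to 34198624. Another of 114.7 lay in an intron of Pdcd2l, 330 bp from one of its starts. The remaining peak, 13.5 kb upstream in an intron of 4931406P16Rik, had 32.1.

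Outside the promoter, Pfkl was flanked by strong sites on both sides. Upstream lay peaks of 403.3 at 8.84 kb, 112.0 at 15.6 kb and 340.9 at 18.2 kb. The first and the last had perfect cores, and in the replicates they had 227.5 and 178.7, and 176.9 and 162.9. Downstream, a peak of 366.8 (replicates 180.5 and 187.8) lay 2.06 kb beyond the gene in the 3' UTR of 1810043G02Rik, and one of 69.4 lay 14.6 kb beyond it, 1795 bp from a start of Trpm2. The other peak within the gene, in intron 1 and 3.18 kb from the 5' end, had 22.7.

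Pcx held 10 peaks within its body, more than any other of the 8 genes, and most were weak. Their signals ran from 18.3 to 128.0. The strongest lay in intron 2, 78.8 kb from the 5' end (128.0, replicates 68.0 and 59.9), and the next, 111.8, in coding exon 9, 94.1 kb from it. The peak at the 5' end was among the weakest, 18.3 (replicates 9.91 and 9.57), 452 bp inside the gene and with no core within 2 mismatches. An internal start of a protein-coding transcript, 48338 bp inside the gene, had a peak of 42.0 at 141 bp (replicates 28.2 and 20.5). The summits in the replicates lay 38 and 92 bp from that of this peak. With matching narrowed to 50 bp, it was the peak lost, leaving 46 of 47 matched in both replicates. The starts of 3 further protein-coding transcripts, 5182, 83874 and 83936 bp inside the gene, had their nearest peak 4730, 5046 and 5108 bp away. Near the 3' end lay peaks of 22.4 in intron 11 (45 bp from a start of Lrfn4), 36.5 in coding exon 14 and 39.1 in the 3' UTR of Pcx. The strong sites of the window stood outside: 385.6 at 12.8 kb upstream (replicates 194.0 and 193.3), in an intron of 2010003K11Rik, and 313.1 at 7.26 kb beyond the 3' end (replicates 156.5 and 158.0), in an intron of Gm960.

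The 3 gluconeogenic enzyme genes Pck1, Fbp1 and G6pc had no optimal peak in the gene itself, and their peaks lay beyond its ends. Pck1 had 4, all downstream, at 0.228, 5.27, 11.7 and 16.6 kb beyond the 3' end. In that order their signals were 288.0, 169.9, 135.0 and 67.2, lower with each step away from the gene. In replicate 1 they were 148.2, 84.2, 72.2 and 29.98, and in replicate 2 138.7, 85.1, 63.1 and 37.4, the same order in each. All 4 cores lay on the plus strand, the strand of the gene, so they pointed away from it. The nearest peak to its left was 28.8 kb upstream of the 5' end, outside the window, with a signal of 21.6.

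Fbp1 also had 4 peaks, all beyond its 3' end, at 4.47, 8.16, 8.36 and 9.89 kb. The 3 farther ones lay in introns of Fbp2, which encodes the muscle fructose bisphosphatase and neighbours Fbp1, and the nearest lay between the genes. Their signals were 17.6, 60.3, 329.2 and 340.5. In replicate 1 they had 5.86, 44.4, 176.0 and 172.4, and in replicate 2 11.2, 30.9, 155.0 and 167.6, so the strong pair kept clear of the weak pair in both. The peak of 329.2 had a perfect core and lay 80 bp from an internal start of Fbp2. It overlapped the borders of the peak of 60.3, whose summit was 0.205 kb away. All 4 cores lay on the minus strand, that of Fbp1, and so pointed away from the gene as at Pck1.

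At G6pc the flanking peaks stood on either side. One of 38.7 lay 12.9 kb upstream of the 5' end over a repeat-masked core, with 14.4 in replicate 1 and 23.7 in replicate 2. The other, 325.6, lay 17.5 kb beyond the 3' end on chromosome 11 from 101395226 to 101395475, with 165.9 and 159.7. Their cores pointed toward each other across the gene, 40.7 kb apart. With the window narrowed to 10 kb, G6pc had no peak. The first peak left out by the 20 kb limit lay 20.3 kb upstream, with a signal of 32.5. The nearest peak left out elsewhere was 20.4 kb upstream of Pklr (170.0), and the last ones kept lay 19.2 kb upstream of Pklr (25.8) and 19.1 kb upstream of Pcx (13.2).

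Slc2a2 had 2 peaks in the gene and 1 beyond it. The intronic peaks lay 12.0 kb from the 5' end in intron 3 (216.3, replicates 112.3 and 102.3) and 25.8 kb from it in intron 8 (71.1, replicates 46.2 and 25.7). The one beyond the gene, on chromosome 3 from 28746153 to 28746462, 15.0 kb beyond the 3' end in an intron of 1700112D23Rik, was the strongest of all 47 at 446.9 (replicates 217.97 and 231.4), above 98.9% of the list. No optimal peak lay between the 5' end and 39.3 kb upstream of it. Both replicate lists held a summit at -3.58 kb from the 5' end (ranks 50826 and 47058). Slc2a2 had 4 peaks in the conservative list and 4 with either replicate left out.

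The stretch without optimal peaks around the 5' end is bounded, at the 4 genes with a promoter peak, by that peak itself, so its length there is no separate observation. It was 51.4 kb at Slc2a2, 35.3 kb at Pck1, 59.5 kb at Fbp1 and 40.7 kb at G6pc, and 3.38 kb at Gpi1, 4.08 kb at Pklr, 9.07 kb at Pfkl and 13.2 kb at Pcx. The median over protein-coding genes was 37.7 kb, so the longer values were ordinary ones. Fbp1 stood above 62.7% of genes and Gpi1 above 6.25%. Weak calls in the replicate lists, which hold 300000 peaks each, did not fill the 4 empty promoters. Within 1 kb of any start of Slc2a2 or G6pc neither replicate list nor the pooled list had a peak. Pck1 had 1 in replicate 1 (signal 2.71, rank 254500) and none in replicate 2, and Fbp1 had 1 in the pooled list alone (signal 5.01, rank 198809).

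Among the 25 pairs of neighbouring peaks in a window that both had a core, 11 pointed the same way, 6 toward each other and 8 away from each other. Of the 37 cores 23 lay on the strand of the gene. All 3 pairs at Pck1 and all 3 at Fbp1 were of the first kind, and the pair at G6pc was of the second. At Pcx all 3 kinds occurred. The same counts over all neighbouring peaks of the list were not made, so these values describe the 8 genes only.

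The other genes of glucose metabolism were taken as a list of 45, of which 44 matched a single protein-coding record (Aldoa has a pair of records of that name and was left out). A promoter peak was found at 28 of the 44 (63.6%), against the 36.2% of all protein-coding genes, and at their 5' end at 16 (36.4%), against 28.3%. By role, 17 of 25 glycolytic and glucose transport genes, 6 of 9 genes of gluconeogenesis and its shuttles and 5 of 10 regulators had one. At the 5' end the counts were 8, 4 and 4. Of the 44 genes 21 had a CpG-rich promoter, and 14 of these had a promoter peak, against 53.8% of all such genes. The rest of the 28 genes with a promoter peak lacked a CpG-rich promoter. Among all protein-coding genes that lack one, 22.1% had a promoter peak. The annotated starts of the 44 genes were not counted, and the part of starts and CpG content was not tested.

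Of the glycolytic genes, the strongest promoter peaks were at Slc2a4, the insulin-dependent transporter of muscle and fat (407.2, replicates 210.9 and 198.2), at the enolase gene Eno1 (366.6, replicates 180.6 and 187.8) and at Pfkfb2, whose enzyme makes the activator of phosphofructokinase (311.2, replicates 155.9 and 156.2). The one at Eno1 lay 643 bp from an internal start and that at Pfkfb2 151 bp from one. In the gluconeogenic group they were at Got2, the mitochondrial aspartate aminotransferase (371.2, replicates 178.3 and 194.3), at Fbp2 (329.2, the peak counted for Fbp1 above) and at Slc37a4, the glucose 6-phosphate transporter that works with G6pc (50.6, replicates 28.8 and 20.8). Among regulators they were at Mlxipl, which encodes the carbohydrate response factor ChREBP (179.2, replicates 96.8 and 80.6, 981 bp from an internal start), at the kinase gene Sik1 (146.6, replicates 77.2 and 68.2) and at Gckr (36.8, replicates 17.3 and 20.2, 766 bp from an internal start). Mlxipl also had a weaker peak within 1 kb of its 5' end.

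Relatives of the 8 genes that are known mainly from other tissues or compartments are given beside them. Pkm, the pyruvate kinase of muscle and most other tissues, had a promoter peak of 58.4 where Pklr had 134.9. The peak at Pkm lay 203 bp from an internal start and 1075 bp from the 5' end. A weaker one lay within 1 kb of that end. The muscle and platelet phosphofructokinase genes Pfkm and Pfkp had 24.1 and 22.2, both near internal starts, where Pfkl had 230.5. Pfkp also had a weaker peak within 1 kb of its 5' end. The peak at Pfkm was matched in replicate 2 only. Pck2, the mitochondrial counterpart of Pck1, had 43.3 (replicates 12.4 and 27.6), 143 bp from an internal start, and Pck1 none. G6pc2 and G6pc3 had no promoter peak, like G6pc, with their nearest peaks 5.20 and 6.44 kb from a start. Slc2a1, the transporter of red cells and brain capillaries, had 125.7 at 112 bp from its 5' end, and Slc2a2 none.

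**Figure D5:**
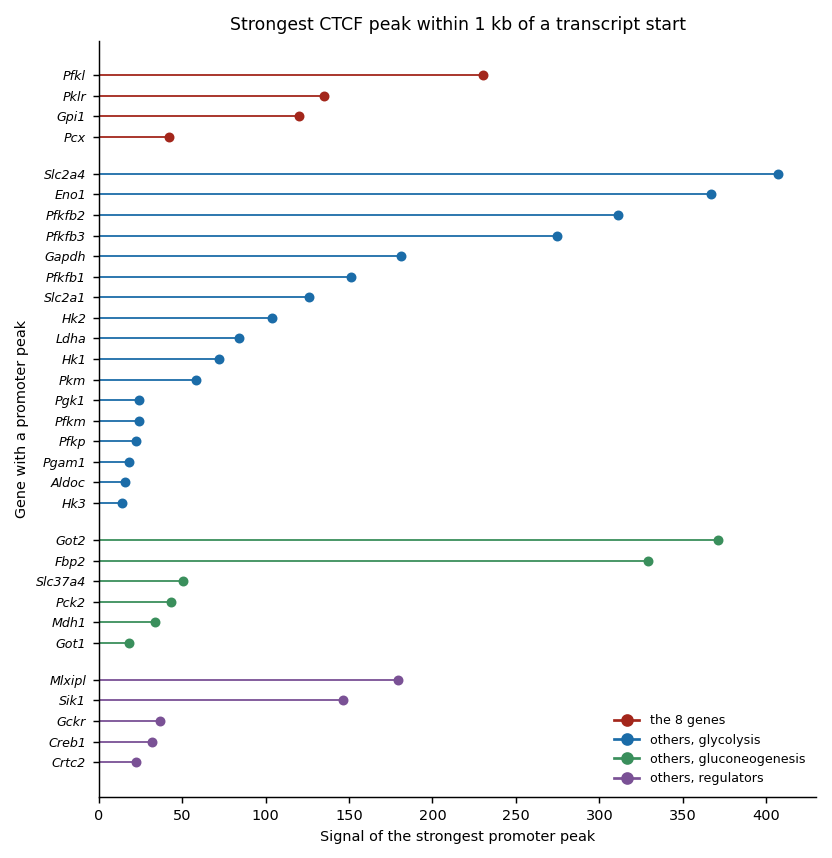
Each line ends at the signal of the strongest peak within 1 kb of an annotated start (x axis) of a gene that has such a peak (y axis), grouped by role. Of the 8 genes only the 4 with a promoter peak appear, from Pfkl at 230.5 to Pcx at 42.0, and they fall within the range of the other genes, which reaches 407.2 at Slc2a4.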

How the data were processed

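CTCF ChIP-seq peak lists on mm10 were used, per the labels. The authors deposited a list for each replicate, a pooled list and the conservative and optimal IDR lists. Each peak carries a signal that the authors deposited whose scale no source here names; it served for description and ranking. The summit is the peak start plus the offset in the file, another deposited number. The aligner, the peak caller and their settings (not given in the sources used here) cannot be described, and the labelled control was not analysed. The lists hold no read counts, so the depth of the libraries is unknown. Each replicate list ends at exactly 300000 peaks.

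Windows, promoter peaks, replicate matches and core matches were computed with Python 3.11.15, pandas 2.3.3 and numpy 2.4.6, and exact binomial (Clopper-Pearson) intervals with scipy 1.17.1. The CTCF core was searched by the motif of 14 letters on both strands, with at most 2 mismatches and its centre within 50 bp of the summit, and the search was tested on simulated data. Repeat masking is that of the RefSeq copy of GRCm38, within whose chromosome ends all 57197 optimal peaks on chromosomes 1 to 19, X and Y lay. The named genes are the 8 genes with all their peaks, the 3 with the strongest promoter peak in each role, and relatives of the 8. A result for a gene of the list is left out here. The genes and lists were chosen with earlier results of these data known, and the comparison with the repeat-masked sequence after these data were seen.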

Additional observations from a re-analysis of the deposited data

How the results depend on the processing

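Every alternative chosen at the outset was run. The 47 peaks became 26 with the stronger 28610 peaks of the optimal list and 83 within 50 kb, by construction of those settings. The 28 other glucose genes with a promoter peak became 14 with the stronger peaks (18.5% of all protein-coding genes had a promoter peak there) and 16 at 5' ends only. The share of the peaks with the core, 78.7%, became 36.2% with at most 1 mismatch and 95.7% with at most 3, while the shares over all optimal peaks were 38.6% and 91.1%. With 1 replicate left out, the count of peaks was 47 to 49, that of genes with a promoter peak 4, that of other glucose genes 25 and the share with the core 75.5% to 76.6%. The same 4 of the 8 genes had a promoter peak with either replicate alone and in the conservative list. Over all protein-coding genes the share with a promoter peak was 36.4% with either replicate alone and 34.7% in the conservative list. Among the stronger peaks Pcx lost its promoter peaks, leaving 3 of the 8 genes against that 18.5%, and within 5 kb of a start Slc2a2 gained one, making 5 of 8 against 56.3% of all protein-coding genes. Read depth is unknown, so the lack of a peak says only that none was called here.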

Other observations

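Of the 154 peaks of replicate 1 and the 156 of replicate 2 in the windows, those at the 47 optimal peaks included, most others were not shared. Outside the optimal list, the replicate lists shared 18 further summits in the windows of the 8 genes, each within 100 bp in both replicates and with no optimal peak that near. Pcx had 6 of them, Pfkl 3, Pklr 3, Gpi1 2, Fbp1 2, Slc2a2 1, Pck1 1 and G6pc 0. The best ranked were at Slc2a2, at -3.58 kb from the 5' end (ranks 50826 in replicate 1 and 47058 in replicate 2), and at Pcx, 28.9 kb inside the gene (ranks 51322 and 51888). At Pklr 1 such site lay 23.3 kb from the 5' end, beside the promoter peak of Hcn3, at ranks 56170 and 55397. These 3 sites were among the 57220 strongest peaks of each replicate list, and none was in the optimal list. The site at Slc2a2 lies in the stretch of 51.4 kb without optimal peaks.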
